A study of Mus musculus with 6 samples.

Results

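The 1000 densest captured regions of the neonatal mouse ventricle at postnatal day 1 (P1) are described here, with their read density at postnatal day 14 (P14). They were chosen on the P1 values themselves. Of 213957 distinct regions in the deposited table, 153435 lay on chromosomes 1 to 19 with a width of 300 to 10000 bp and are called eligible here. Members are the 1000 eligible regions with the highest mean raw count of the 3 P1 libraries per kb, so that their P1 density is a description of the choice and carries no test.

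Methylated DNA was captured from the hearts of male C57BL/6 mice at P1 and at P14, with 3 libraries per age, called biological replicates in the design text, and no treatment at either age. Per the labels' protocols, atria were removed and the ventricles kept with the septum intact, while the tissue label names the left ventricle. The labels do not say whether a library came from 1 animal or from pooled animals, so the spread between libraries may be technical in part. The tissue was not sorted, so the reads come from muscle cells and all other cells of the ventricle.

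In the mouse genome most CpG sites outside CpG islands are methylated, in gene bodies as well as between genes. A protein with a methyl-CpG binding domain (MBD) holds fragments that carry methylated CpGs, and holds those with many more firmly than those with few. Read density therefore rises with the number of methylated CpGs in a fragment and gives no methylation level per site. It also rises wherever the assembly holds fewer copies of a repeated sequence than the genome does, since reads of all copies are then placed on the few that are represented. Ribosomal DNA and satellite repeats are well-known examples of such sequence. No repeat annotation or genome sequence was used here, so the repeat content of the members was not measured.

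The 6 libraries held 16284216 to 21512072 reads over all distinct regions. Eligible regions took 22.75%, 24.49% and 24.06% of reads in P1 replicates 1 to 3 and 45.41%, 30.46% and 28.06% in P14 replicates 1 to 3. P14 replicate 1 thus stood apart from the other P14 libraries. P1 replicate 1 stood apart in another way, with no read in 2498 eligible regions, beside 30 and 37 in the other P1 libraries. The main counts and medians are given with and without them, in the places where they move.

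A few members hold a RefSeq promoter window or a microRNA whole, which allows reference sequence within these members to be shown. Reads were counted per region, so the counts do not show which part of a member was captured. Promoter windows of 300 bases (250 before and 50 after the start) lay whole inside a member in 10 cases (2 of them overlapping at Gm15564), and 4 from the densest members are printed here by their 250 upstream bases. They come from RefSeq on GRCm38.p6, are written 5′ to 3′ along the gene's strand, and have each CG in capitals. Gm15564 (minus strand, chr16:35981848-35982097) is a long noncoding RNA beside the nuclear import gene Kpna1. Plce1 (plus strand, chr19:38523947-38524196) encodes a phospholipase C. Ldhal6b (minus strand, chr17:5418768-5419017) is a lactate dehydrogenase-like gene and Csl (minus strand, chr10:99759659-99759908) a citrate synthase-like gene.
Gm15564: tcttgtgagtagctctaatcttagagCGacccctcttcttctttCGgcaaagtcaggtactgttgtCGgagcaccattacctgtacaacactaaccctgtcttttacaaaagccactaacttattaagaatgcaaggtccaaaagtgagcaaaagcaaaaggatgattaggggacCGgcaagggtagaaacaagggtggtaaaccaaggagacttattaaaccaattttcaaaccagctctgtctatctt
Plce1: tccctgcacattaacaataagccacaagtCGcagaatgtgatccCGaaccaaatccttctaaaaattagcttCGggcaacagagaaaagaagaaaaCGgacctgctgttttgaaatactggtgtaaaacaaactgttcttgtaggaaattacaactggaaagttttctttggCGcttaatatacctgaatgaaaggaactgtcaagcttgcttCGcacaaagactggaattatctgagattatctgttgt
Ldhal6b: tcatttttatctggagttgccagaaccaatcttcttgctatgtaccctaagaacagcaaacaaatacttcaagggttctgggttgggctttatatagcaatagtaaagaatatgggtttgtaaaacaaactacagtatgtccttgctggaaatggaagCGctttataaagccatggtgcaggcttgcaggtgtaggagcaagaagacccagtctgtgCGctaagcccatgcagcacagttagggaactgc
Csl: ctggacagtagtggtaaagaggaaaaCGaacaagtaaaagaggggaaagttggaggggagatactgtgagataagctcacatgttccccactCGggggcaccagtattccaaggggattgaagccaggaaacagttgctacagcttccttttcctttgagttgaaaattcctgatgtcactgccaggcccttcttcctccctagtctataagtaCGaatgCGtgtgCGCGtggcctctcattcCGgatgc

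The upstream stretch held 4 CG in Gm15564, 6 in Plce1, 2 in Ldhal6b and 7 in Csl. In CPM per kb, that is in reads per kb scaled to the depth of each library, the density at P14 was 1.74, 1.65, 1.44 and 1.48 times that at P1 in the members that hold these windows, in the same order. Over the 10 windows inside members the median was 8.5 CG in 300 bases (range 6 to 16), where CG reads the same on both strands. Windows with 15 or more CG made up 1 of those 10 (10%), 34.7% of the 6616 windows whole inside an eligible region and 35.2% of all 31396 windows on chromosomes 1 to 19. In the next 1000 regions it was 3 of 10 windows (30%), so counts this small allow only a coarse share. A match of letters describes the window and says nothing of its methylation.

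Mature microRNAs lay whole inside 3 members, and those of the 2 densest of these members are printed with their seed, bases 2 to 8, in capitals. The first member lies on chromosome 12, 109591513 to 109595028, in the imprinted Dlk1-Dio3 domain, and holds microRNAs that are transcribed opposite to Rtl1, an imprinted gene derived from a retrotransposon.
miR-433-5p: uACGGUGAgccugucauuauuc
miR-433-3p: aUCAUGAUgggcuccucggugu
miR-127-5p: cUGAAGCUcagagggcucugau
miR-127-3p: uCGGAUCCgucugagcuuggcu
miR-434-5p: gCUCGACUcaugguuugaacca
miR-434-3p: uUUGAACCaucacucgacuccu
The other member lies on chromosome 16, 18283586 to 18284688, in Dgcr8, which encodes a partner of Drosha in microRNA processing.
miR-1306-3p: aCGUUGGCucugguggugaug
miR-1306-5p: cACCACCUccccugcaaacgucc
miR-3618-3p: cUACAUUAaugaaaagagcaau
miR-3618-5p: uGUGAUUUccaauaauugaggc

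All 10 seeds differed from each other. The Rtl1 member held 123, 183 and 136 reads in P1 replicates 1 to 3 and 531, 236 and 188 in P14 replicates 1 to 3. Every P14 library was above every P1 library in raw reads. Here and below, overlap of the ages at single members is judged on raw reads, which are not scaled to depth. P14 replicate 3 had the fewest reads of the 6 libraries. The Dgcr8 member held 78, 53 and 44 reads at P1 against 151, 76 and 38 at P14, with the ages overlapping. In CPM per kb, P14 was 1.95 times P1 at the Rtl1 member and 1.36 times at the Dgcr8 member.

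Density fell off steeply among the members. Only 4 reached 1000 reads per kb at P1, 11 lay between 100 and 1000, 21 between 50 and 100, 261 between 40 and 50, and 703 below 40 reads per kb. The median member held 38.2 reads per kb at P1 (36 reads per library over a median width of 920.5 bp), beside 13.7 reads per kb for the median eligible region. The 4 densest took 59.1% of all member reads at P1, and the densest alone 32.9%. Most members are therefore close to the lowest density that was kept, and few stand far above it. Eligible regions went down to 0.812 reads per kb at P1, so they include sparse regions as well as dense ones.

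The lower bound of the choice was a matter of decimals. The last members were at Zdhhc2 with 35.664, Ank3 with 35.657, Tmem217 with 35.647, Rab11fip1 with 35.646 and Igfbp2 with 35.637 mean reads per kb at P1. The first 3 regions left out lay on chromosome 15 with 35.634, chromosome 4 with 35.628 and chromosome 1 with 35.623 reads per kb, followed by Lhfpl2 and a region on chromosome 3, both with 35.623. In all, 2799 eligible regions reached at least 90% of the lowest member's density.

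**Figure D1:**
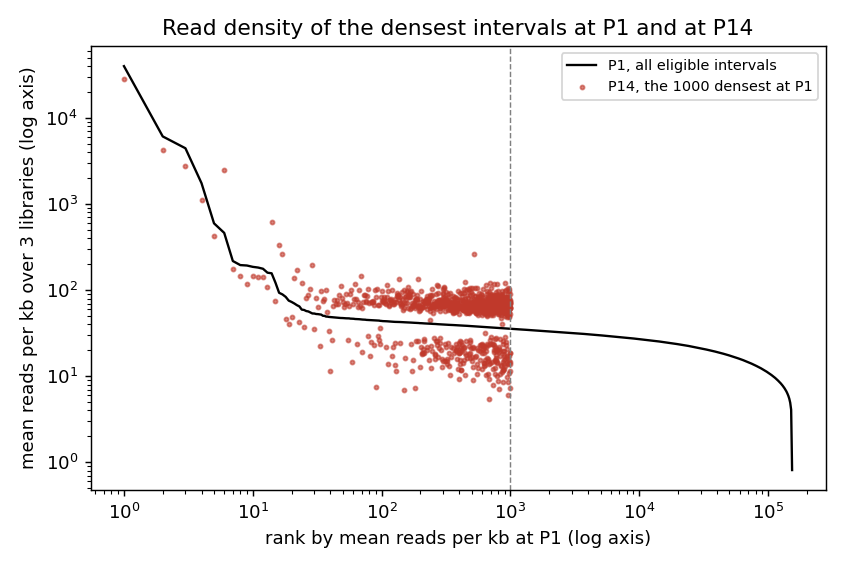
Mean reads per kb over 3 libraries (log axis) against rank by P1 density (log axis); the black line is P1 over the eligible regions, red points are the P14 values of the 1000 members, and the dashed line marks rank 1000. The black line drops from 40174 reads per kb to 35.637 at rank 1000, while the red points separate into a band above and a band below 40 reads per kb.

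The densest members were short stretches with very large read counts and, for the most part, no named gene. The densest lies on chromosome 9, 35304804 to 35305839, inside the span of the long noncoding RNA Gm33838. It held 40517, 42697 and 41648 reads at P1 against 9227, 32684 and 45523 at P14, that is 0.219%, 0.244% and 0.230% of all reads at P1 and 0.0429%, 0.163% and 0.280% at P14. The P1 libraries lay close together, whereas P14 replicate 1 was far below the other P14 libraries and P14 replicate 3 was the highest of all 6.

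An intergenic member on chromosome 14, 19415316 to 19419832, came next with 27307, 29103 and 26553 reads at P1 against 6057, 22085 and 29411 at P14. The third, intergenic on chromosome 9 (24541603 to 24542489), held 3918, 4360 and 3596 reads at P1 against 687, 3311 and 3419 at P14. The fourth, on chromosome 2 (98664572 to 98665512), held 1554, 1808 and 1585 reads against 292, 1278 and 1544. In each of these 4 the lowest library was P14 replicate 1, and the other P14 libraries lay far nearer to the P1 values.

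Of these 4, the chromosome 2 member was part of a longer dense tract. Its neighbours of 31285 bp and 82968 bp, both too wide to be eligible, held 1630 and 2006 reads per kb at P1. The regions that adjoin the densest member on chromosome 9 held 5.715 and 6.392 reads per kb, and those beside the third member 3.81 and 2.167. At these members on chromosome 9 the density therefore ended at the borders of the member. Beside the second member, on chromosome 14, the region before it held 5.042 reads per kb and none in the table adjoined it on the other side.

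The next members repeated this pattern. The member of rank 5 on chromosome 12 (3109524 to 3110483) held 548, 609 and 567 reads at P1 against 138, 429 and 657 at P14. Inside 2210408I21Rik on chromosome 13 (77438576 to 77439270), a protein-coding gene, there were 146, 170 and 139 reads against 41, 151 and 171. An intergenic member on chromosome 3 (56575260 to 56575877) held 84, 146 and 133 reads against 38, 125 and 110.

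Fbxw4 encodes an F-box protein of ubiquitin ligases, and its member on chromosome 19 (45649769 to 45650374) held 137, 117 and 98 reads at P1 against 20, 99 and 97 at P14. A member on chromosome 18 (55939150 to 55940018), inside the span of the noncoding Gm52332, held 142, 171 and 174 reads against 42, 159 and 180. Again P14 replicate 1 was the lowest library while replicates 2 and 3 lay near the P1 values.

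Among the 15 members of at least 100 reads per kb, P14 replicate 1 was the lowest of the 6 libraries in CPM in 13 and the highest in 2. Among the 985 below that density it was the lowest in 131 (13.3%) and the highest in 733 (74.4%), close to the 9.31% and 68.0% over all eligible regions. For the 11 members between 100 and 1000 reads per kb, the median percentile among eligible regions was 73.6 in P14 replicate 1 and 99.99 in both other P14 libraries. A member on chromosome 1 (48881230 to 48881996) marked the low end, with 89, 101 and 91 reads at P1 against 4, 71 and 98 at P14. These members stayed among the densest eligible regions in P14 replicates 2 and 3, and less so in the replicate that captured most reads in eligible regions. P14 replicate 3, with 28.06% of its reads in eligible regions, was above every P1 library in that share. It was the highest of the 6 libraries in CPM at 8 of the 15 members. The part of that share in the result was not tested.

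The 2 exceptions were the member of rank 6 and that of rank 14. The first, AY036118 on chromosome 17 (39842596 to 39849091), spans a noncoding gene and the 18S ribosomal RNA pseudogene Rn18s-rs5 in RefSeq, which resembles the ribosomal DNA repeat. It held 4027, 3469 and 1535 reads at P1 against 32115, 10133 and 6972 at P14. The second, on chromosome 11 (109011282 to 109012687) within the noncoding Gm36876, held 297, 236 and 130 reads against 1506, 664 and 423. In both, every P14 library was above every P1 library, and replicate 1 was the highest within its age.

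A few less dense members were likewise higher in every P14 library. At Cdk8, the kinase of the Mediator complex, the member that the table also names for Mir5105 (chromosome 5, 146260595 to 146261698) held 166, 92 and 51 reads at P1 against 638, 277 and 187 at P14. An intergenic member on chromosome 1 (195241202 to 195241985) held 82, 87 and 41 reads against 377, 135 and 112. At Cmss1 and Filip1l, overlapping genes on chromosome 16 (57390894 to 57392014), there were 62, 46 and 20 reads against 660, 145 and 77. The ages did not overlap in any of these 3, and P14 replicate 1 was the highest library in each. These members were picked out after their values were seen, except where they are among the 10 highest ratios given further on. Whether they share sequence with ribosomal DNA was not tested.

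**Figure D2:**
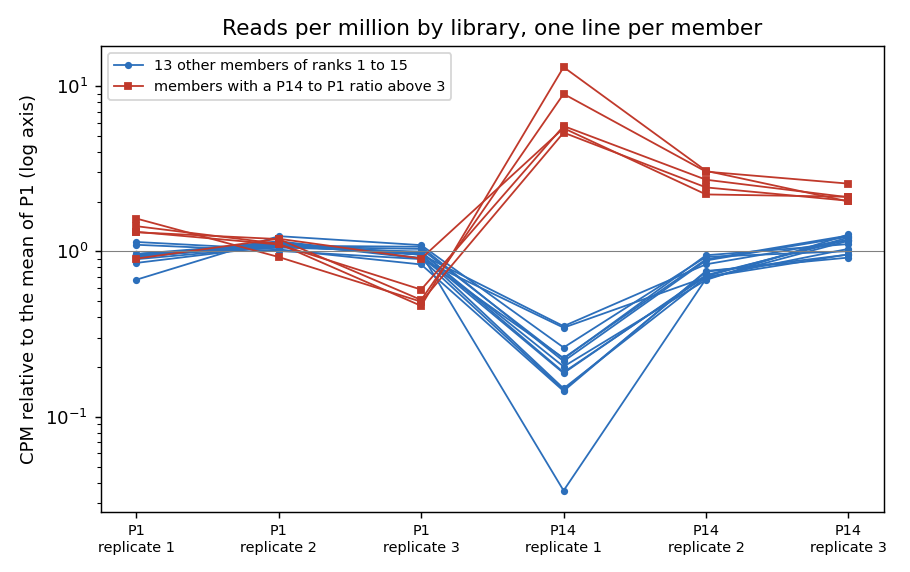
CPM of each member relative to its mean over the P1 libraries (log axis), for P1 replicates 1 to 3 and P14 replicates 1 to 3; each line is 1 member, red for the 5 members with a ratio of P14 to P1 density above 3 (AY036118, Cdk8, Cmss1 with Filip1l, and those on chromosomes 11 and 19) and blue for the other 13 of ranks 1 to 15. Blue lines dip at P14 replicate 1 and return near 1 in P14 replicates 2 and 3, and red lines are highest at P14 replicate 1.

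Beyond this small set, members lay mostly in genes. RefSeq gene spans held 822 members (82.2%), as did 82.2% of the next 1000 regions by P1 density and 74.5% of all eligible regions. A further 50 lay within 5 kb of a gene and 128 were intergenic. Protein-coding spans were touched by 752 members, long noncoding spans alone by 55 and other spans by 15. No transcript structure was used, so exons, introns and UTRs were not told apart. The table named a gene at 766 members, at 778 of the next 1000 and at 44.5% of eligible regions. This feature thus belonged to the dense end of the eligible regions and not to the members alone. Only 25 members (2.5%) touched a promoter window, beside 1.6% of the next 1000 and 4.28% of eligible regions.

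By chromosome, members made up from 0.398% of eligible regions on chromosome 11 to 1.08% on chromosome 3. The first 5 Mb of a chromosome, next to the centromere in the mouse, held 22 members (2.2%), beside 0.9% of the next 1000 and 1.27% of eligible regions. The last 3 Mb held 26 members (2.6%), beside 2.78% of eligible regions. Only 55 members lay within 10 kb of another one.

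The members named 778 genes, and 9 genes had 3 or more members. Dst, which encodes dystonin, a giant linker of the cytoskeleton, had 7 members among its 32 eligible regions. Its P1 densities ran from 36.192 to 40.61 reads per kb, and its densest member (chromosome 1, 34190034 to 34192873) held 140, 99 and 107 reads at P1 against 295, 148 and 96 at P14. The ages overlapped there in raw reads, since P14 replicate 3 was below every P1 library. Fat1, a giant cadherin, had 4 members of 17 eligible regions, of which the densest at P14 (chromosome 8, 45022773 to 45027159) held 178, 231 and 176 reads at P1 against 769, 388 and 212 at P14.

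Ank3 encodes ankyrin-G, an adaptor between membrane proteins and the cytoskeleton, and had 3 members of 31 eligible regions. One of them was the widest of all members, with 9489 bp (chromosome 10, 69985245 to 69994733), and held 348, 402 and 396 reads at P1 against 1147, 642 and 407 at P14. The ages did not overlap at this member, though P14 replicate 3 was barely above the highest P1 library. The other genes with 3 members were Abcc4 (an exporter of cyclic nucleotides and drugs), Atp11a (a phospholipid flippase), Dync1h1 (the dynein heavy chain), Lrrc8d (a subunit of volume-regulated anion channels) and Rab3ip (an exchange factor of Rab GTPases). Gm20388 was named at 5 members, but this gene model spans many others and was named at 849 eligible regions.

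Among gene lists, the share of members was highest relative to all eligible regions for zinc finger (Zfp) genes, a family of DNA-binding proteins with repeated fingers. They had 32 members at 29 genes (3.2% of members), beside 14 of the next 1000 (1.4%) and 0.541% of eligible regions. MicroRNA genes had 6 members (0.6%), beside 0.2% of the next 1000 and 0.139% of eligible regions. No list was tested, and regions of 1 gene are not independent.

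The densest Zfp member was at Zfp180 (chromosome 7, 24104088 to 24107277), with 183, 228 and 158 reads at P1 against 611, 340 and 213 at P14. Zfp169 held 128, 90 and 90 reads against 271, 134 and 75, Zfp27 held 146, 135 and 102 against 355, 180 and 113, and Zfp146 held 105, 107 and 106 against 289, 155 and 77. By raw reads, P14 replicate 3 fell among the P1 libraries at Zfp180 and Zfp27 and below them at Zfp169 and Zfp146. P14 replicate 1 was the highest library at each. Of the 32 members at Zfp genes, 30 had a higher density in CPM per kb at P14, with a median ratio of 1.70, and 11 were also among the 1000 densest at P14. Over all members the higher density was found in 747 of 1000, or in 672 without P14 replicate 1. Over all eligible regions it was found in 82.7%, with a median ratio of 1.71, so the median ratio at Zfp genes was near the background. The Zfp values include P14 replicate 1.

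Among lists of heart genes, 0 members lay at the 36 sarcomere and contractile genes and 0 at the 29 cardiac transcription factors. These lists held 0.14% and 0.0619% of eligible regions, so a count of 0 in 1000 is near the background. Calcium handling and ion channel genes had 6 members (0.6%), beside 0.8% of the next 1000 and 0.225% of eligible regions. Hcn2 and Hcn4 encode pacemaker channels; the Hcn2 member held 49, 43 and 25 reads at P1 against 145, 60 and 31 at P14, and the Hcn4 member 28, 32 and 31 against 128, 45 and 38. At Hcn4 every P14 library was above every P1 library, and at Hcn2 the ages overlapped.

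Ryr2 encodes the release channel of the sarcoplasmic reticulum, and its member held 33, 18 and 10 reads at P1 against 4, 9 and 7 at P14, with no overlap. Kcnd3, a channel of the transient outward potassium current, held 44, 96 and 72 reads at P1 against 279, 110 and 88 at P14, where the ages overlapped. Both remaining members of that list lay in Kcnd2 and had a lower density in CPM per kb at P14, with ratios of 0.285 and 0.410.

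Imprinted loci had 4 members (0.4%), as many as in the next 1000, beside 0.162% of eligible regions. Besides the Rtl1 member, these were at Zim1, Trappc9 and Sfmbt2. Zim1, an imprinted zinc finger gene, held 61, 66 and 56 reads at P1 against 187, 94 and 52 at P14, and Trappc9, a trafficking factor, 26, 19 and 16 against 63, 41 and 16. Sfmbt2, a Polycomb-group gene, went the other way, with 37, 15 and 17 reads against 10, 9 and 10. Germline genes had 2 members (0.2%, beside 0.104% of eligible regions), at the piRNA pathway helicase Tdrd9 and at Pdha2, the testis form of a pyruvate dehydrogenase subunit. Pdha2 held 61, 78 and 68 reads at P1 against 239, 109 and 55 at P14. Developmental transcription factors of other tissues had 1 member (0.1%, beside 0.0717%), at the B-cell factor Pax5, with 17, 11 and 14 reads against 22, 23 and 13.

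The pattern lists gave smaller counts. Solute carriers had 15 members (1.5%, beside 0.943% of eligible regions), collagens 4 (0.4%, beside 0.229%) and olfactory and vomeronasal receptors 2 (0.2%, beside 0.0984%). For 5S ribosomal RNA genes there was 1 member (0.1%), beside 0.3% of the next 1000 and 0.0209% of eligible regions. The AY036118 member, which spans Rn18s-rs5, is not in that list. Clustered protocadherins and histone clusters had 0 members, and held 0.043% and 0.0358% of eligible regions. Counts of 0 to 2 are too small to be told from these shares. Predicted or clone-named genes had 86 members (8.6%), beside 9% of the next 1000 and 6.25% of eligible regions.

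**Figure D3:**
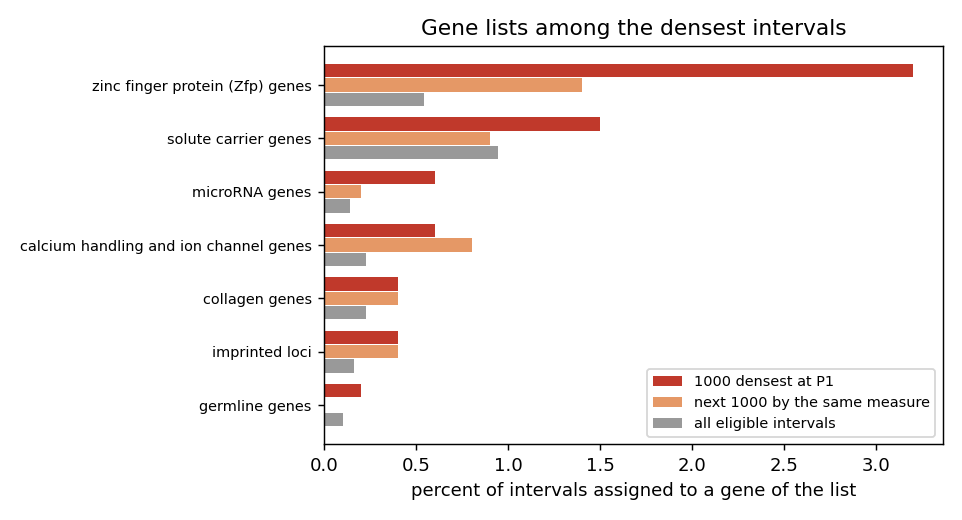
Percent of regions assigned to a gene of each list, for the 1000 members, the next 1000 by P1 density and all eligible regions. Bars start at 0; Zfp genes stand at 3.2%, 1.4% and 0.541% in that order.

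Most members were still dense at P14, although few were among the very densest. The median member held 65.0 reads per kb at P14, beside 28.8 for the median eligible region. Its percentile among eligible regions was 95.41, 97.04 and 95.62 in P14 replicates 1 to 3, a mean of 96.0 ± 0.886 (SD, n = 3), beside 91.7 ± 1.57 (SD, n = 3) for the next 1000. By mean P14 density, 753 members were in the top 10% and 255 in the top 1%, while 229 were below the median. The 1000 densest at P14 included 183 members and 94 of the next 1000. Without P14 replicate 1 the median percentile was 96.33 and 284 members were among the 1000 densest.

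Members had a smaller relative gain in density from P1 to P14 than eligible regions did. Density in CPM per kb was higher at P14 in 747 members, in 712 of the next 1000 and in 82.7% of eligible regions, with median ratios of 1.51, 1.52 and 1.71. Without P14 replicate 1 the counts were 672 members, 643 of the next 1000 and 79.2% of eligible regions, and the ratios 1.12, 1.14 and 1.34. Members were chosen for high values at P1, which enter this ratio, so it is a description only. Members took 0.706%, 0.741% and 0.660% of all reads at P1 (mean 0.702 ± 0.0404, SD, n = 3) and 0.839%, 0.683% and 0.819% at P14 (0.780 ± 0.0848, SD, n = 3). The ages overlapped in this share, and the P14 mean was 0.7509% without P14 replicate 1. Its parts moved in opposite directions. The 4 densest members took 0.415 ± 0.0258% at P1 and 0.288 ± 0.208% at P14 (SD, n = 3). The 985 members under 100 reads per kb took 0.254 ± 0.0209% and 0.396 ± 0.181%, and the 11 between 100 and 1000 took 0.0326 ± 0.00791% and 0.0961 ± 0.0555%.

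The P14 densities of the members formed 2 separate bands. Only 8 members (0.8%) and 1 of the next 1000 had a mean of 30 to 45 reads per kb at P14, a range that held 30.8% of eligible regions. Divided at 40 reads per kb, a value chosen after the densities were plotted, 236 members lay below and 764 at or above. Both bands had a median of 38.2 reads per kb at P1. The gap between the bands rests on P14 replicate 1: without it, 287 members (28.7%) had a mean of 30 to 45 reads per kb. For the members of each band, the 5th to 95th percentile of the mean over P14 replicates 2 and 3 was then 10.4 to 29.95 reads per kb in the lower and 36.8 to 65.4 in the upper. Band membership was set on a mean that includes these libraries, so this separation is partly built in. In P14 replicate 2 alone the ranges were 8.597 to 38.65 and 39.05 to 81.73. In P14 replicate 3 alone they overlapped, with 6.142 to 30.09 and 26.08 to 56.01.

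The median densities of the P1 libraries were close together in one band and differed in the other. In the upper band the median density was 41.56, 39.29 and 36.46 reads per kb in P1 replicates 1 to 3 and 113.5, 56.81 and 38.35 in P14 replicates 1 to 3. In the lower band it was 58.96, 28.79 and 28.33 at P1 and 15.71, 20.63 and 15.58 at P14. P1 replicate 1 was the highest P1 library in 204 of the 236 lower members (86.4%) and in 357 of the 764 upper ones (46.7%).

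The lower members were also narrower, with a median width of 589 bp beside 1086 bp, where width is the denominator of the density. The table named no gene at 103 of them (43.6%), beside 131 of the upper members (17.1%). These groups were formed after the values were seen and were not tested.

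Members that all P1 libraries placed highest were most often among the densest at P14. Each member was counted by the number of P1 libraries in which it was among that library's own 1000 densest. It was 0 libraries for 220 members, 1 for 577, 2 for 167 and 3 for 36. The share that was also among the 1000 densest at P14 was 13.2%, 13.2%, 32.3% and 66.7% in that order, and the median P14 rank was 4909.5, 4811, 1737 and 67. The 36 members of 3 libraries included the very dense ones described before and had a median of 79.7 reads per kb at P1, beside 36.9 to 41.8 in the other groups. The share in the top 10% at P14 had no such order, with 83.2%, 68.6%, 86.8% and 80.6%, nor did the share below the median, with 14.1%, 30.5%, 13.2% and 0%.

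**Figure D4:**
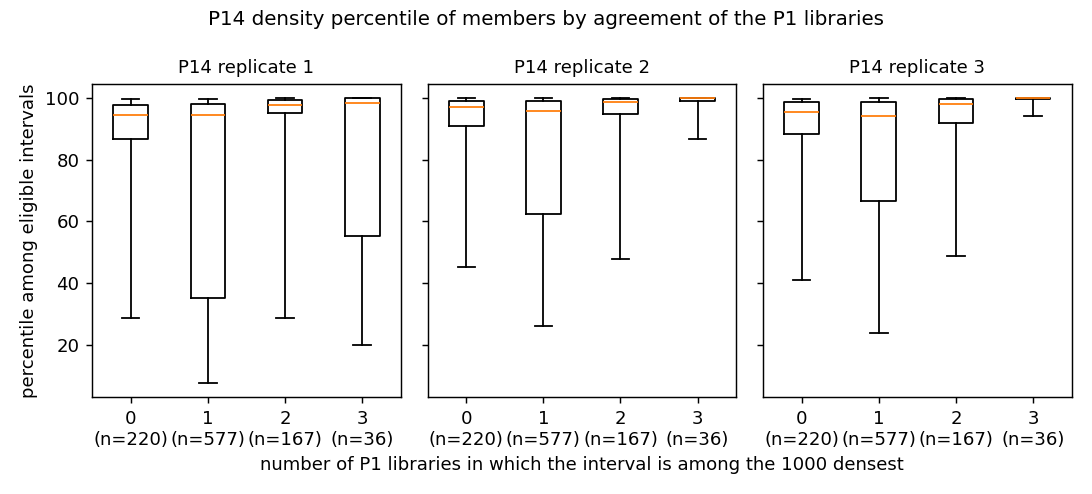
Percentile of members among eligible regions in P14 replicates 1 to 3, by the number of P1 libraries in which the member is among that library's own 1000 densest; boxes are quartiles with the median, whiskers the 5th and 95th percentile. Over the 36 members with 3 libraries the mean of the 3 medians is 99.4, and over the 577 with 1 library it is 94.7, with low whiskers in the latter.

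P1 replicate 1 exceeded both other P1 libraries by more than 2 times in 113 members, a feature of 2.76% of eligible regions. Their median width was 566 bp, their median percentile at P14 was 35.8 ± 12.6 (SD, n = 3 libraries), 96 were below the median at P14, and 2 were among the 1000 densest. The other 887 members had a median percentile of 96.9 ± 0.811 (SD, n = 3), 133 were below the median and 181 were among the 1000 densest. The median ratio of P14 to P1 density in CPM per kb was 0.395 in the 113 and 1.55 in the 887. These 113 held 22 reads per P1 library in the median, beside 39.3 in the 887. How much of their P1 density was counting error in 1 library was not tested.

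A choice made on only 2 P1 libraries leaves one that the choice did not use. With P1 replicate 1 left out, the 1000 densest had a median percentile of 90.96 in the unused P1 library and of 96.66, 97.46 and 96.66 in P14 replicates 1 to 3. With P1 replicate 2 left out the values were 89.78 in the unused library and 43.69, 75.53 and 76.95 at P14. With P1 replicate 3 left out they were 90.72, and 87.47, 89.55 and 86.27 at P14. The lists shared 509, 590 and 647 regions with the members.

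The unused P1 library was therefore at about the same level each time, and all P14 libraries were above it in the first case and below it in the others. Leaving out P1 replicate 2 gave a mean P14 percentile of 65.39, the lowest of the 3, and leaving out P1 replicate 1 gave 96.93. Staying dense at P14 thus depended on which P1 libraries chose the regions. The 1000 densest of single libraries had 63 regions in common for P1 replicates 1 and 2, 53 for replicates 1 and 3 and 189 for replicates 2 and 3, beside 193 to 314 for pairs of P14 libraries. P1 replicate 2 shared 167, 218 and 188 with P14 replicates 1 to 3, as many as with P1 replicate 3, whereas P1 replicate 1 shared 31, 53 and 54.

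**Figure D5:**
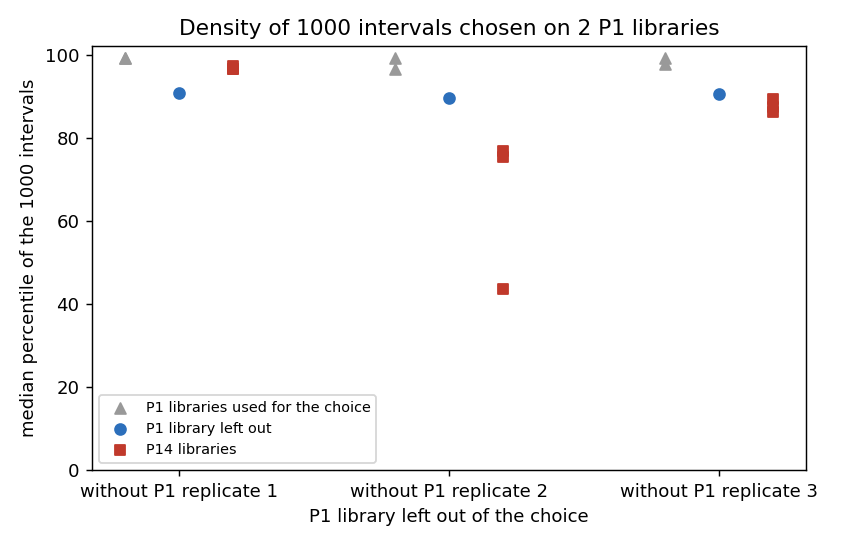
Median percentile among eligible regions of the 1000 densest regions chosen on 2 P1 libraries, for each P1 library left out; points are single libraries, marked as used for the choice, left out, or P14. The left-out P1 library sits between 89.78 and 90.96 each time, and the P14 libraries range from 43.69 to 97.46.

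In the other direction, the 1000 densest regions at P14 were mostly dense at P1 as well. Of these, 741 were in the top 10% and 243 in the top 1% at P1, and 7 were below the median. Their median percentile was 90.6, 96.8 and 90.64 in P1 replicates 1 to 3. The 183 shared regions are 18.3% of either list. Few of the P14 list were thus sparse at P1, while 229 members were below the median at P14.

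No member passed the test between ages over all regions. In edgeR's quasi-likelihood test 964 members were tested, 36 having been removed by the filter on low counts, and 0 were higher and 0 lower at an adjusted p under 0.05, against a background of 0% called in each direction among 209063 regions. At an unadjusted p under 0.05, 116 members were higher and 161 lower at P14, beside 12.7% and 10.3% of all regions tested. The smallest adjusted p was 0.214. Because the choice used the P1 values of the same contrast, nothing is read from these counts. The median log2 change was 0.35 over members, 0.51 over eligible regions and 0.12 over all regions, with 743 of 964 members above 0. Without P14 replicate 1 the medians were 0.025, 0.27 and 0.038 in that order, with 515 members above 0. Without both libraries numbered 1 the median was 0.099 over members and 0.24 over eligible regions.

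The scale of the fit also moved the median over members. Fitted over eligible regions alone, the same test gave a median log2 change of -0.05 for members and of 0.11 for all 141831 regions, with 0 members called in either direction and a background of 0%. At an unadjusted p under 0.05 there were then 22 members higher and 203 lower of 955 tested, beside 5.71% and 13.2% of all regions tested. The choice on P1 values enters these counts as well, so nothing is read from them. DESeq2, run on the same counts, called 1 member higher and 1 lower, against backgrounds of 0.0215% and 0.000976%.

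Those 2 members were AY036118 and Neat1. AY036118 had a log2 change of 1.89 (SE 0.407) and an adjusted p of 0.0301 in DESeq2. In edgeR's quasi-likelihood test its change was 1.97 (SE 0.53) and its adjusted p was 0.214. Neat1, the noncoding RNA that scaffolds paraspeckles, held 30, 21 and 37 reads at P1 against 9, 7 and 5 at P14 on chromosome 19 (5843467 to 5844277), with no overlap. Its log2 change was -2.48 (SE 0.545) with an adjusted p of 0.0351 in DESeq2 and -2.39 (SE 0.417) with an adjusted p of 0.214 in edgeR.

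Without P14 replicate 1, edgeR called 5 members higher and 1 lower, against backgrounds of 0.169% and 1.43%. Neat1 was the lower one, with an adjusted p of 0.0333, and AY036118 (log2 change 1.33, adjusted p 0.0333 in edgeR) and the chromosome 11 member of rank 14 (1.12, adjusted p 0.0333 in edgeR) were among the higher. The others were a member within 5 kb of a gene on chromosome 6 (3200635 to 3201903), an intergenic one on chromosome 19 (61199226 to 61200188) and the member at Cmss1 and Filip1l. The chromosome 6 member held 83, 95 and 77 reads at P1 against 303, 224 and 135 at P14, and the chromosome 19 member 48, 60 and 47 against 343, 127 and 100. No overlap between ages was seen in either. Without both libraries numbered 1, a choice made after seeing the data, 23 members were higher and 8 lower, against backgrounds of 1.23% and 2.46%. The count of calls thus rests on these 2 libraries.

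The 10 members with the lowest ratio of P14 to P1 density were narrow, sparse at P14 and led at P1 by replicate 1 in all but Neat1. Rcan2, a calcineurin regulator, held 32, 15 and 7 reads at P1 against 3, 1 and 4 at P14, a ratio of 0.146. Ros1, a receptor tyrosine kinase, held 35, 3 and 13 reads against 4, 3 and 2, and Kcnq5, a potassium channel, 41, 5 and 20 against 0, 10 and 3. Parg, which removes poly(ADP-ribose), held 34, 8 and 12 reads against 5, 7 and 1.

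Rad21, a subunit of cohesin, had 42, 15 and 12 reads against 2, 11 and 2. The others were intergenic, on chromosomes 18, 14, 4 and 16, with ratios from 0.162 to 0.204. P14 was below P1 without overlap at Rcan2, Rad21, Parg and Neat1, and the ages overlapped at Ros1 and Kcnq5. Of the 10, 7 were removed by the filter on low counts and have no test.

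The 10 with the highest ratio were at Cmss1 and Filip1l (ratio 6.02), AY036118 (4.85), the chromosome 11 and chromosome 19 members named before (3.52 and 3.30), Cdk8 with Mir5105 (3.23), Pcdh1 (2.95), Zfp358 (2.91), Gm7247 (2.87), Tenm3 (2.86) and Mbtps1 (2.85). Pcdh1, a cell adhesion protein of the cadherin family, held 69, 115 and 104 reads at P1 against 603, 238 and 121 at P14. Tenm3, an adhesion protein of synapse formation, held 73, 52 and 27 reads against 352, 77 and 62. Mbtps1 encodes the site-1 protease that activates membrane-bound transcription factors and held 24, 24 and 49 reads against 200, 57 and 52. At Pcdh1 and Mbtps1 every P14 library was above every P1 library, and at Tenm3 the ages overlapped. P14 replicate 1 was the highest library at all 10.

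For a comparison whose choice did not use the age labels, the 1000 eligible regions with the highest density over all 6 libraries, in CPM per kb, were taken. The libraries with high values, above all P14 replicate 1, weighed most in this choice. They include 386 members and 744 of the 1000 densest at P14. They took 0.7193%, 0.8166% and 0.6993% of reads at P1 and 1.476%, 0.8723% and 0.9584% at P14. P14 was higher by 0.357 percentage points (0.745 ± 0.0628 against 1.10 ± 0.327, SD, n = 3) with a two-sided exact permutation p of 0.1, the smallest that 3 libraries against 3 allow. All P14 libraries were above all P1 libraries. Without P14 replicate 1 the difference was 0.1302 points (exact permutation p = 0.2), and as a share of the reads in eligible regions it was 0.04254 points (exact permutation p = 0.8).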

How the data were processed

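Captured DNA was sequenced for 36 cycles per the labels' protocols. The authors deposited 1 table of read counts per region, whole numbers not divided by depth or width. Tools listed in the submitters' processing notes, with no role stated, are BWA, MACS, edgeR 3.2.4 and bedtools, and the build is GRCm38 (mm10). How peaks were called, whether duplicates were removed and whether libraries were pooled: not given in the sources used here, as for all other settings.

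The table's 221524 lines gave 213957 distinct regions; starts were written 1-based. Gene names are the table's, and gene spans, promoter windows and microRNAs are from RefSeq (GRCm38.p6). Density is reads per kb, or CPM per kb over a library's reads in all distinct regions. Percentiles and ranks are among the 153435 eligible regions. Ages were compared with edgeR 4.0.16 (quasi-likelihood test, TMM factors, default filter, Benjamini-Hochberg threshold 0.05) in R 4.3.3 over all regions, again over eligible regions alone, and with DESeq2 1.42.0. An SE given for edgeR is the absolute log2 change divided by the square root of its F statistic. It is not the same quantity as the SE reported by DESeq2. Tested on simulated counts, the edgeR step over 202766 regions recovered 3 of 100 regions changed by 2-fold and 81 of 100 changed by 4-fold, with 9 false calls among 93. The changed regions were taken only from those above a set mean read count. Counts were drawn independently for each library, so a shift of 1 whole library, as in P14 replicate 1, was not simulated. These figures therefore do not give the recovery in the real counts. With 36 reads per library in the median member, counting error limits the order of members. PCR copies cannot be told from separate molecules.

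The members, gene lists and tests were chosen with earlier results of these data known. Regions named in the text were the 10 densest, 5 on either side of the lowest kept density, the 10 lowest and highest ratios, list members, genes with 3 or more members and members called in a fit; others are said to have been picked after their values were seen.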

Additional observations from a re-analysis of the deposited data

How the results depend on the processing

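The counts of members called were 0 higher and 0 lower with library totals, without the filter, in the fit over eligible regions, and under the other rules for choosing members (CPM, median, narrower width limits, 500 or 2000 kept). DESeq2 called 1 and 1. Leaving out 1 library gave 0 to 5 higher and 0 to 1 lower, and leaving out both libraries numbered 1 gave 23 and 8. The latter was chosen after seeing the data, as was leaving P14 replicate 1 out of the ratios, the bands and the median log2 change. With the replicate number as a block the counts were 0 and 0. Deviations of same-numbered libraries from the mean of their age had correlations of -0.13, -0.08 and -0.02, beside -0.1 to 0.14 for the other pairs. With 3 libraries per age these values constrain each other, so they cannot decide whether the numbers pair the samples.

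Against 183 members among the 1000 densest at P14, keeping 500 regions gave 79 and keeping 2000 gave 486, since the lists differ in length. Leaving out 1 library gave 106 to 284. The median percentile at P14, 96.02, was 94.26 with 2000 kept and 65.39 to 96.93 with 1 library left out. The share of P14 reads, 0.7801%, was 0.5831% with 500 kept, 1.115% with 2000 kept and 0.6116% to 0.8288% with 1 library left out. The low ends of these ranges came without P1 replicate 2, and the cause was not tested. The difference of 0.357 points in the regions chosen over all 6 libraries kept its sign under 9 alternatives, from 0.04254 to 0.6601. At 36 reads per member and library, regions near the lowest kept density could not be ordered.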
